A study of Mus musculus with 16 samples.

Results

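The subunits of the oxidative phosphorylation complexes were followed across the cell classes of the kidney in BTBR mice with diabetic nephropathy (DN). Members were chosen by symbol alone, with no measured value: nuclear symbols that begin with Nduf and a, b, c, s or v before a digit, with Uqcr, with Cox followed by a digit from 4 to 8, or with Atp5, and Sdha to Sdhd made up 84 features, and the protein genes of mitochondrial DNA, named mt-Nd, mt-Co, mt-Cytb or mt-Atp, made up 13. These 97 members stood among 31053 features in the count tables. Atp5o was listed under 2 identifiers, so that the nuclear members carried 83 symbols.

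Oxidative phosphorylation moves electrons from NADH through complex I (Nduf genes) or from succinate through complex II (Sdh genes) to complex III (Uqcr genes) and on to complex IV, cytochrome c oxidase (Cox genes), which passes them to oxygen. The proton gradient built on the way drives complex V, the ATP synthase (Atp5 genes). Complex II is encoded wholly in the nucleus, whereas the other complexes join nuclear subunits to a few proteins made from mitochondrial DNA. Tubule cells spend ATP on salt and solute transport and are rich in mitochondria, while glomerular cells hold fewer of them.

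DN mice were BTBR ob/ob animals, homozygous for the leptin mutation, and control mice were wild type at the leptin gene. All animals, controls included, were BTBR mice with a podocyte reporter: the mT/mG allele at Rosa26 and a podocyte-driven Cre transgene. Females and males were taken at 6 and 12 weeks of age, so that 8 groups of 2 libraries resulted, each library from 1 mouse. Both kidneys of a mouse were pooled, the papilla was removed and a Percoll gradient took away part of the proximal tubules before the cells were released with a cold-active protease. Cell numbers per class therefore do not mirror the kidney.

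Cell barcodes set 4 libraries apart. Within a set of 12 libraries and within a set of 4, library pairs shared 7 to 55 barcodes, at most 1.43% of the smaller library, and across the sets they shared 0 to 3. The set of 4, here the smaller barcode list, comprised replicate 1 of each female group and held 10510855 to 21728793 unique molecules (UMIs) per library, against 83410397 to 125551519 in the larger list. Sequencing kits of 2 versions were used in the study, and the version of each library was not given in the sources used here. Every male library belonged to the larger list, so sex and list are partly confounded. Among the 12, replicate 2 of the control males at 6 weeks had a median of only 698 UMIs per barcode, and replicate 1 of that group had high mitochondrial levels in endothelial, mesangial, smooth muscle and renin, and immune cells.

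Of 116439 barcodes, 94436 passed limits of 200 to 7000 genes and 50% mitochondrial UMIs, and 65802 were kept in 16 classes after removal of 6993 barcodes with a UMI of an opposite-lineage marker as doublets and of 618 non-tubular barcodes over 20% mitochondrial UMIs. Classes were named from marker genes and clustered without the members, and each name means "like" that cell type. They were proximal tubule (PT), descending and ascending loop of Henle (dLOH, aLOH), distal convoluted tubule (DCT), connecting tubule (CNT), principal cells (PC), intercalated cells of type A and B (IC-A, IC-B), podocytes, mesangial cells, smooth muscle and renin cells, glomerular, arterial, and peritubular and venous endothelial cells (EC), immune cells and mitotic cells. The limits used in naming were chosen with the clusters already in view. Another 21023 barcodes lay in clusters left without a name and were not used. Of these, 13044 were in clusters of low depth that carried the markers of a class, and they made up 61.9% and 50.03% of the CNT cells of controls at 6 and 12 weeks against 36.9% and 35.1% in DN mice. A single control library at 6 weeks supplied 40.5% of all low-depth CNT cells, so the 6-week control share leans on it. The mitochondrial limits also cap the mitochondrial levels given here. Counts of a class were summed per library, divided by all UMIs of that library and class and scaled to the counts-per-million unit, CPM, and used where a library had at least 10 cells of the class.

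The nuclear members together were highest in IC-A cells, with a median of 80539 CPM over 16 libraries and a range of 49595 to 113384 CPM. DCT followed with a median of 72192 CPM and IC-B with 71649 CPM, and these neighbours overlapped broadly, DCT lying above IC-B in 8 of 16 libraries. IC-A exceeded IC-B in 16 of 16 libraries and DCT in 14 of 16, but DCT in 8 of 16 when mitochondrial genes were taken out of the total. The ascending limb had a median of 65825 CPM, PC 54728 CPM, CNT 54483 CPM and PT 52013 CPM. The last of these did not separate, since PT lay above CNT in 7 of 16 libraries and CNT above PC in 8 of 16. The descending limb was the lowest tubule class at 43418 CPM.

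All other classes were lower than every tubule class in 16 of 16 libraries, with the 7-library mitotic class left aside. Smooth muscle and renin cells led them with a median of 32474 CPM and exceeded mesangial cells (22119 CPM) in 16 of 16 libraries. Podocytes, the filtration barrier cells, had a median of 28435 CPM and exceeded glomerular EC (20512 CPM) in 13 of 13 libraries. Arterial EC (19296 CPM) and immune cells (19212 CPM) were lowest. These orders between classes are a description, since classes were built from the same cells.

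**Figure D1:**
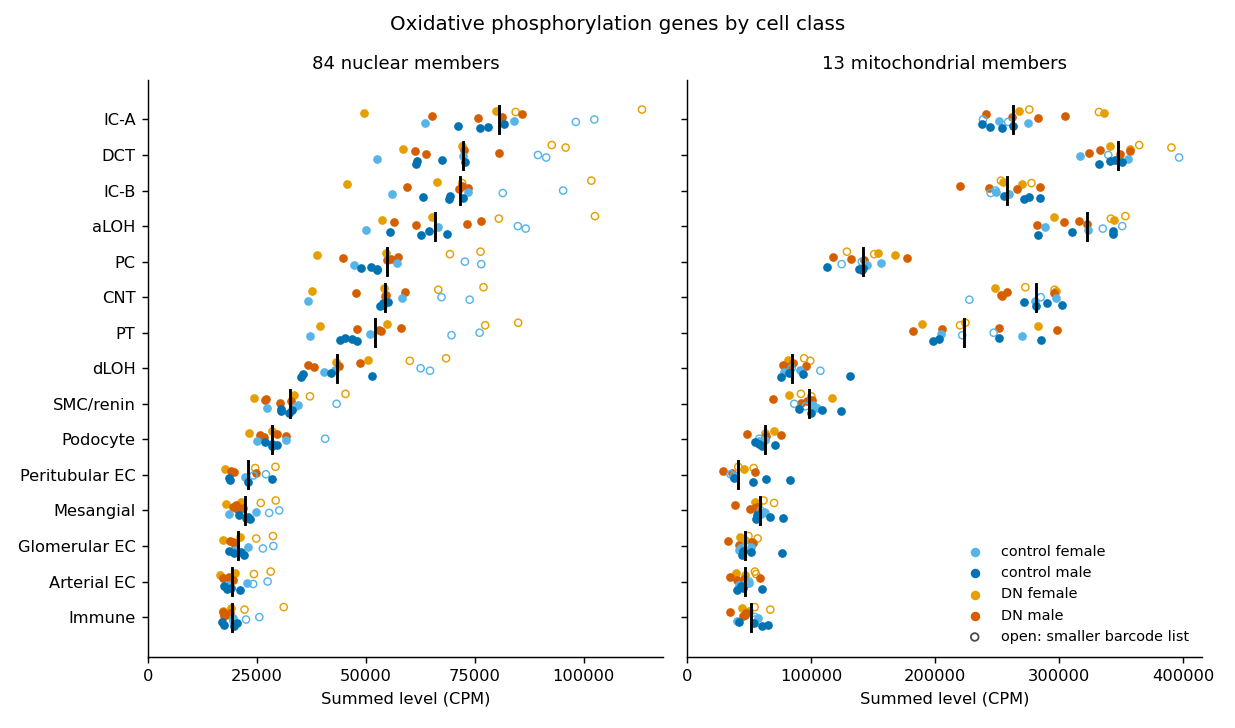
Summed level of the 84 nuclear members (left) and the 13 mitochondrial members (right) in each class, in CPM. A point is a library, coloured by genotype and sex, open points are the smaller barcode list, and the black bar is the median; nuclear sums are highest in IC-A, with DCT level with it when mitochondrial genes are taken out of the total, and mitochondrial sums are highest in DCT and aLOH.

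The mitochondrial members took another order. DCT had the highest sum, with a median of 347229.8 CPM and a range of 316913 to 396511 CPM, and lay above IC-A (262328 CPM) in 16 of 16 libraries, although IC-A had the higher nuclear sum in 14 of 16 on the same total. The ascending limb had a median of 322480.1 CPM, and DCT exceeded it in 15 of 16 libraries. CNT (280896 CPM) exceeded PC (141500.4 CPM) in 16 of 16 libraries, whereas the nuclear sums of this pair could not be ordered on the same total. PT reached 223069 CPM. Smooth muscle and renin cells (98413 CPM) lay above the descending limb (84686 CPM) in 12 of 16 libraries, the reverse of their nuclear order, which held in 16 of 16.

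The ratio of mitochondrial to nuclear UMIs of the members summed this up. Its median over libraries was 4.80 in CNT, 4.77 in DCT, 4.53 in aLOH and 4.22 in PT, and fell through 3.79 in IC-B and 3.28 in IC-A to 2.62 in PC and 1.95 in dLOH. Non-tubular classes ranged from 1.52 in mitotic cells, which were filtered as non-tubular, to 2.96 in smooth muscle and renin cells. Because both sums share the same total, a high mitochondrial share lowers nuclear CPM by construction. With mitochondrial genes taken out of the total, every tubule class again exceeded all other classes in 16 of 16 libraries for the nuclear members, but the order within the tubule moved. The median of IC-A was then 108093 against 107415 for DCT (IC-A higher in 8 of 16 libraries), that of IC-B 96004 against 95945 for aLOH (IC-B higher in 6 of 16), and that of CNT 75757 against 64055 for PC (CNT higher in 15 of 16), all in CPM of the UMIs of non-mitochondrial genes.

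The complexes kept a similar place in every class. Of the nuclear sum, complex I (37 members by symbol) held a median of 30.4% to 37.4% across classes, complex III (8) 9.2% to 12.1%, complex IV (18) 24.0% to 28.6% and complex V (17) 25.5% to 28.7%. Complex II, with 4 members, held 1.6% to 2.6%, and its largest share was in PT. Ndufa4 and Ndufa4l2, counted here with complex I by symbol, are associated with complex IV.

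Most single nuclear members followed the tubule-high order on the total that includes mitochondrial genes. The share of all features with this order was not counted, so the counts below describe the members only. For 62 of 84 nuclear members every tubule class had a higher median CPM than every other class, mitotic cells left aside, and the top class was IC-A for 44 members, DCT for 13, IC-B for 11, PT for 5, dLOH for 2 (Ndufb8 and Ndufb11), and aLOH and PC for 1 each. Cox8b, Cox8c and the second identifier of Atp5o had a median of 0 in all classes. Cox7a2l, a Cox7a-related factor of respiratory supercomplexes, ran the other way, with its highest median in immune cells (408 CPM) and its lowest in DCT (167 CPM), and Cox4i2, Ndufa4l2 and Cox7b2 were likewise highest outside the tubule. Core subunits followed this order. Cox5a, a nuclear subunit of complex IV, ran from 1962 CPM in IC-A to 302 CPM in mesangial cells, and Uqcrc1 of complex III from 469 CPM in IC-A to 97.2 CPM in arterial EC. Sdha, the flavoprotein of complex II, ran from 464 CPM in IC-B to 123 CPM in immune cells. Atp5b, the catalytic beta subunit of complex V, ran from 2487 CPM in IC-B to 406 CPM in arterial EC, and Atp5a1 from 1620.0 CPM in DCT to 327 CPM in arterial EC. DCT was the top class for 12 of the 13 mitochondrial members, but for only 3 of them did every tubule class exceed every other class in median CPM.

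Paralogs with restricted expression had orders of their own. Cox4i2, the isoform of complex IV subunit 4 known from oxygen-sensing and contractile cells, had a median of 356 CPM (191 to 632) in smooth muscle and renin cells and 24.0 CPM (12.3 to 70.4) in mesangial cells. It stayed at a median of 3.40 CPM or lower in the other classes, apart from 12.0 CPM in the mitotic cells. Its widespread counterpart Cox4i1 was found everywhere, from 2705 CPM in IC-A to 639 CPM in arterial EC.

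Ndufa4l2, a hypoxia-induced paralog of Ndufa4, followed the same stromal classes: 703 CPM (391 to 1167) in smooth muscle and renin cells and 377 CPM (227 to 618) in mesangial cells. Mitotic cells had a median of 155 CPM and immune cells 23.6 CPM, and every other class stayed at 2.21 CPM or lower. Ndufa4 itself had a median of 3014 CPM in IC-A.

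Tubule classes held other paralogs. Cox6a2, the isoform of subunit 6a known from heart and muscle, was highest in PT, with a median of 47.8 CPM (29.9 to 115), 4.36 CPM in mitotic cells and at most 1.01 CPM in any other class, although the immune class reached 47.6 CPM in 1 library. Cox7a1, likewise named as a heart and muscle isoform, had a median of 316 CPM (199 to 803) in IC-A, 148 CPM (57.9 to 389) in IC-B, 109 CPM (19.6 to 434) in dLOH and 92.4 CPM (43.0 to 287) in PC. Cox6b2, described as a testis isoform of subunit 6b, had a median of 53.6 CPM in PT with a wide range of 8.71 to 132 CPM. IC-A followed with 42.2 CPM (28.0 to 76.2) and aLOH with 32.3 CPM, while the small mitotic class had 99.7 CPM (15.7 to 252).

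Cox7b2, chosen after its values were seen, appeared in podocytes with a median of 21.3 CPM (9.46 to 33.2), from 212 UMIs in 13 of 13 libraries. Its median was at most 0.063 CPM in any other class. Cox8b had a median of 0 CPM in every class, with 47 UMIs in IC-A as its highest sum. The widespread forms Cox6a1, Cox7a2, Cox8a and Cox6b1 were seen in all classes, with medians of 895 CPM in DCT for Cox6a1 and of 2218, 3146 and 2086 CPM in IC-A for the other three. Differences between these paralogs within a class were not read, because a 3′ assay counts each gene with its own efficiency.

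**Figure D2:**
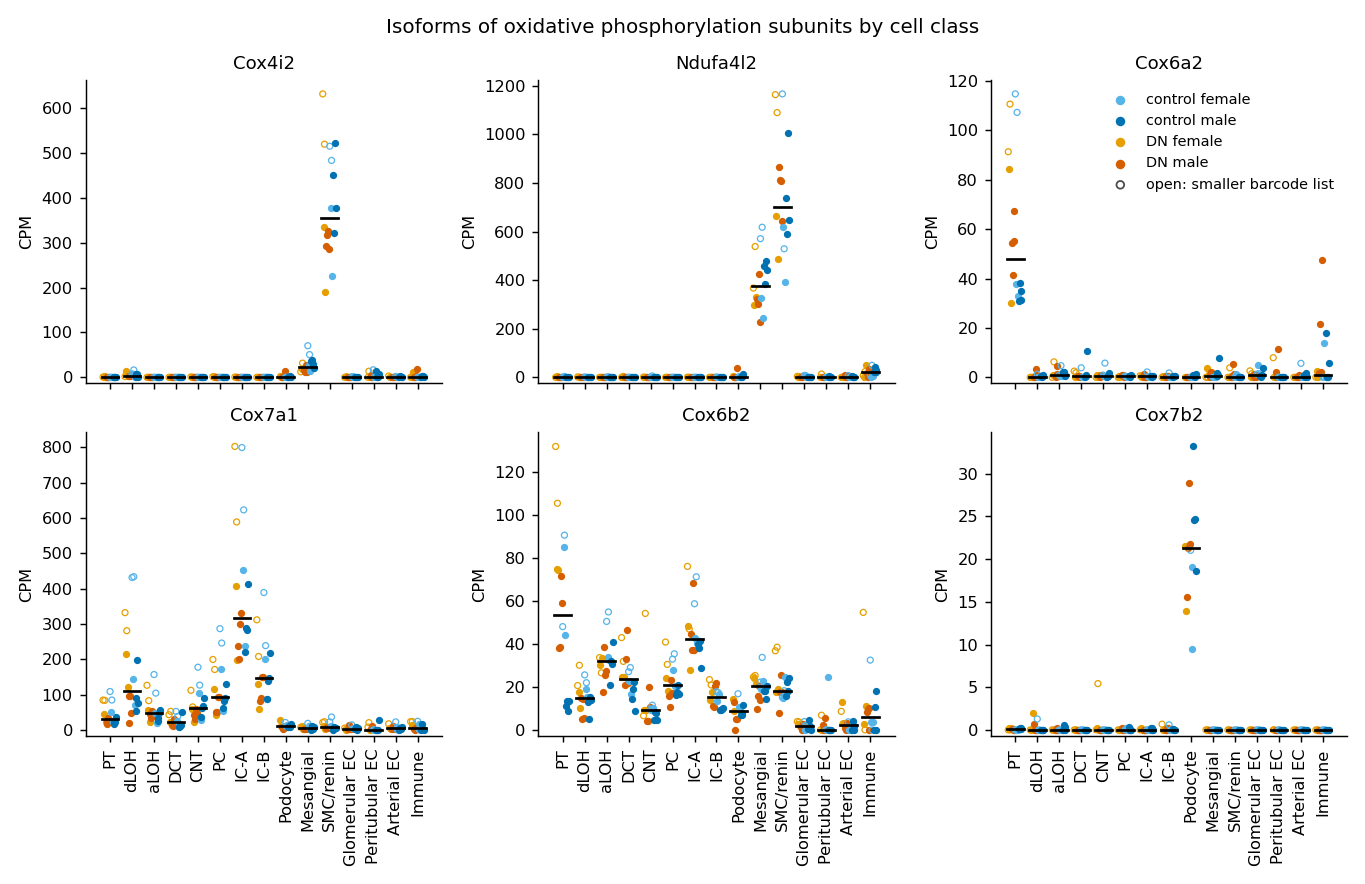
CPM of Cox4i2, Ndufa4l2, Cox6a2, Cox7a1, Cox6b2 and Cox7b2 in each class, a point for each library and a bar for the median. Cox4i2 and Ndufa4l2 sit in smooth muscle and renin cells and in mesangial cells, Cox6a2 in PT, Cox7a1 in IC-A, IC-B, dLOH and PC, Cox6b2 in PT and IC-A with a wide spread in PT, and Cox7b2 in podocytes.

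Promoter sequence was compared for isoform pairs of the same subunit family. RefSeq promoters of 300 bases (250 before and 50 after the start, build GRCm38.p6) were at hand for 71 starts of 66 of the 83 nuclear symbols. Letters of an ETS core (CCGGAA), an NRF1 core (GCGCATGC) and a YY1 core (AAGATGGC), factors long linked to respiratory genes, were searched on both strands. The ETS letters were in 36.6% of member promoters and 14.9% of all 32851 promoters, the NRF1 letters in 14.1% and 2.71%, and the YY1 letters in 12.7% and 2.75%. At least 1 of these was in 52.1% of member promoters and in 18.8% of all. By comparison, TATAAA was in 11.3% and 13.6%, and the E box CACGTG in 8.45% and 7.15%. The median number of CG steps was 19 in member promoters and 7 in all.

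The pairs Cox7a2 and Cox7a1, and Cox6b1 and Cox6b2, are shown because each joins a widespread isoform to a restricted one that the later results turn on. Cox7a2 lies at chr9:79759804-79760103 on the minus strand and Cox7a1 at chr7:30183921-30184220 on the plus strand. Cox6b1 lies at chr7:30626065-30626364 and Cox6b2 at chr7:4753045-4753344, both on the minus strand. Capitals mark the ETS letters on either strand, and none of the 3 searched motifs overlapped another in these promoters.
Cox7a2: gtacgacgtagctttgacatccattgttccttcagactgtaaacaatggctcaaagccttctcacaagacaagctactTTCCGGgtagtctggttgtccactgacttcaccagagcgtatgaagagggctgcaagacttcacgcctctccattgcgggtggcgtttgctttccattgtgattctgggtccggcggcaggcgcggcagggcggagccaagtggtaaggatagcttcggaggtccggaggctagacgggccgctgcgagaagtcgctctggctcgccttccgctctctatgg
Cox7a1: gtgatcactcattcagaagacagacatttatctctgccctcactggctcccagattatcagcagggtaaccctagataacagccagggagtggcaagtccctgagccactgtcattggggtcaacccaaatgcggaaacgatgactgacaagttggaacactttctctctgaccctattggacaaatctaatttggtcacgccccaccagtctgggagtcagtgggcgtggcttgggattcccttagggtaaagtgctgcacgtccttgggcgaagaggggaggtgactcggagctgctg
Cox6b1: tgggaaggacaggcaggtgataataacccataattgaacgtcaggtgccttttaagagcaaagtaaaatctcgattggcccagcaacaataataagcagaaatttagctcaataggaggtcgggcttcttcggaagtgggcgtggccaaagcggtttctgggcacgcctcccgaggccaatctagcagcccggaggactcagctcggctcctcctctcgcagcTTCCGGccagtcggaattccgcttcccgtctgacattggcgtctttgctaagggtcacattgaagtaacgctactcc
Cox6b2: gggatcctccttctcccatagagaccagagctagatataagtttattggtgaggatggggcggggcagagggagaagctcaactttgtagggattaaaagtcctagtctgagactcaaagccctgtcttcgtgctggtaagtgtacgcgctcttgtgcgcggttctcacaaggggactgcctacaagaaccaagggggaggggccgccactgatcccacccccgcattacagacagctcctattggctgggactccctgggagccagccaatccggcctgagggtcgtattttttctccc
The ETS letters stood in the promoters of Cox7a2 and Cox6b1, and none of the 3 cores in those of Cox7a1 and Cox6b2. Cox7a2 had 20 CG steps and Cox7a1 had 7, and Cox6b1 had 17 against 10 in Cox6b2. The others, not printed, were mixed. Cox6a1 held the ETS and NRF1 letters with 32 CG steps, and its partner Cox6a2 had no promoter entry. Cox8a held the ETS letters with 19 CG steps and Cox8b none of the 3 cores with 2, but Cox7b and its podocyte paralog Cox7b2 both held none, with 5 and 10 CG steps, and widespread Ndufa4, again without its partner, held none, with 14. A match is a description of letters and not a site of binding.

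Between DN and control mice the sums did not separate when libraries were compared without pairing. Differences within the pairs described below are not given for the sums. In each of 15 classes at 6 weeks and 14 at 12 weeks the DN and control libraries overlapped for the nuclear and for the mitochondrial sum. The ratio of the DN to the control mean ran from 0.921 to 1.12 at 6 weeks and from 0.875 to 1.12 at 12 weeks for the nuclear members, and from 0.889 to 1.18 and from 0.864 to 1.11 for the mitochondrial members.

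Single members were tested with edgeR's quasi-likelihood test on the summed counts of a class, with terms for age and, at each age, for sex and for genotype, and p-values were adjusted over all genes tested in the class. None of 1147 tests of nuclear members across 15 classes was called at 6 weeks at an adjusted p under 0.05, and none of 1073 at 12 weeks. The same held for 195 and 182 tests of mitochondrial members. In all genes 0.0879% of tests were called at 6 weeks and 0.419% at 12 weeks. At an unadjusted p under 0.05 stood 9 nuclear tests at 6 weeks and 7 at 12 weeks, or 0.785% and 0.652% of those run, against 3.72% and 5.77% of all genes, and 1 and 3 mitochondrial tests. With DESeq2, 1 nuclear test (Cox4i2 in mesangial cells) was called at 12 weeks. The median log2 fold change (log2FC, DN over control) of the nuclear members within a class lay between -0.11 and 0.12 at 6 weeks and between -0.07 and 0.20 at 12 weeks. That of the mitochondrial members lay between -0.25 (peritubular and venous EC) and 0.23 (IC-A) at 6 weeks and between -0.42 (immune cells) and 0.16 (podocytes) at 12 weeks. Of the nuclear members, 74 passed the filter on low counts in each of 15 classes, and so did the 13 mitochondrial members. Atp5s passed in 11 classes, Cox6b2 in 10, Cox7a1 in 9, Ndufa4l2 in 3, Cox4i2 in 2 and Cox7b2 and Cox6a2 in 1 each, while Cox8b, Cox8c and the second identifier of Atp5o passed in none.

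DN and control libraries with the same sex, age and replicate number deviated together, and both libraries of every such pair belonged to the same barcode list. The sample labels number replicates within a group and do not state that same-numbered DN and control mice were handled together. The pairing was read from these same libraries, and every blocked p-value rests on it. A fit with the 8 pairs as a block was set beside the tests of DN against control. It removes what a pair has in common, including the list, and called 1.33% of all tests at 6 weeks and 3.41% at 12 weeks. Among the members it called 2 of 1147 nuclear and 1 of 195 mitochondrial tests at 6 weeks, and 8 of 1073 nuclear and 16 of 182 mitochondrial tests at 12 weeks. The nuclear shares lay below those of all genes at both ages, a difference that was not tested, and all 16 mitochondrial calls at 12 weeks were lower in DN, where 1.36% of all tests were called lower. The same 16 libraries supply every class, so calls of a gene in several classes are not independent. In the larger barcode list alone, fitted without the block, no member was called at either age. Without the block none was called in all 16 libraries either, so this does not bear on the blocked calls.

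Of the calls at 6 weeks, 2 are described. Cox6b2 in DCT had a blocked log2FC of 0.77 (SE 0.17, adjusted p = 0.0297), with 9.02 to 29.0 CPM in 4 control and 21.98 to 46.5 CPM in 4 DN libraries, which overlapped. In IC-A, mt-Co1, a core subunit of complex IV, had a blocked log2FC of 0.40 (SE 0.10, adjusted p = 0.0237). Its control libraries ranged from 30003 to 33828 CPM and its DN libraries from 34278.5 to 48054 CPM, without overlap. Without the block the adjusted p was 1 for both.

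Lowest p-values without the block, as named by rule where no call was made, belonged at 6 weeks to Cox6b2 in PT (log2FC 1.504, adjusted p = 0.333), Ndufa10 in immune cells (-0.84, adjusted p = 1) and Cox6b2 in IC-B (0.67, adjusted p = 1), and to mt-Co1, mt-Co2 and mt-Atp6 in IC-A (0.41, 0.32 and 0.38, each adjusted p = 1). At 12 weeks they belonged to Cox4i2 in mesangial cells, Cox6b2 in PT and Uqcrfs1 in PC, and to mt-Nd4l and mt-Nd5 in immune cells (-1.19 and -0.74, both adjusted p = 1) and mt-Atp8 in glomerular EC (-0.81, adjusted p = 0.994).

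Cox4i2 fell in mesangial cells at 12 weeks. Control libraries measured 70.4 and 27.5 CPM in females and 35.5 and 38.3 CPM in males, and DN libraries 12.3 and 18.4 CPM in females and 16.2 and 12.8 CPM in males. The groups did not overlap, and the DN library was the lower of each pair. The log2FC was -1.26 (SE 0.35, edgeR adjusted p = 0.0583) without the block and -1.16 (SE 0.22, adjusted p = 0.000838) with it, in a class where 4.69% of all genes were called lower. Leaving out any of the 8 pairs kept the blocked call, and with the barcode list as a covariate the adjusted p was 0.0103. At 6 weeks the blocked log2FC was -0.14 (adjusted p = 0.893), and the difference between the ages was not called (-1.02, adjusted p = 0.631).

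In smooth muscle and renin cells, where Cox4i2 is highest, its blocked log2FC at 12 weeks was -0.09 (SE 0.14, adjusted p = 0.85). Ndufa4l2, which shares these classes, had -0.34 (SE 0.14, adjusted p = 0.142) in mesangial cells. Within the mesangial class, 8 markers of smooth muscle and renin cells summed to 775 to 1462 CPM in 4 control and 895 to 2130.0 CPM in 4 DN libraries. Of these, Tagln and Acta2 were called higher (2.05 and 2.03) and Mustn1 lower (-1.28). Ren1 (2.46), Akr1b7 (-0.41) and Mylk (-0.16) were not called. The paper names Tagln and Acta2 as targets of the MRTF-SRF transcription pathway found in DN glomerular cells. Whether the marker sum reflects transcripts of mesangial cells or carried-over ones was not tested. Nuclear-retained Malat1 and Neat1 together measured 35306 to 80502 CPM in controls and 27701 to 56310 CPM in DN. The part of these in the Cox4i2 difference was not tested. Ndufa10, a complex I subunit, was also called lower in mesangial cells with the block (-0.35, adjusted p = 0.0379).

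The mitochondrial calls at 12 weeks were led by mt-Nd4l, a small membrane subunit of complex I. It shares 7 bases with mt-Nd4 at chrM:10167-10173, and mt-Atp8, a small subunit of complex V, shares 43 bases with mt-Atp6 at chrM:7927-7969, both pairs on the plus strand and each known to be carried by a common transcript. Both small genes are shown whole (build GRCm38, GENCODE M21), mt-Nd4l at chrM:9877-10173 with 297 bases and mt-Atp8 at chrM:7766-7969 with 204 bases, with the shared bases in capitals.
mt-Nd4l: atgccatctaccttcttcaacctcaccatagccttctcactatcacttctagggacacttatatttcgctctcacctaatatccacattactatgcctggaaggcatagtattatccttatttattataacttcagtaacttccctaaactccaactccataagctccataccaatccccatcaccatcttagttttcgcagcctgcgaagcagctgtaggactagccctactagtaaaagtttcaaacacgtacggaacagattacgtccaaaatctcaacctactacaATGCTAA
mt-Atp8: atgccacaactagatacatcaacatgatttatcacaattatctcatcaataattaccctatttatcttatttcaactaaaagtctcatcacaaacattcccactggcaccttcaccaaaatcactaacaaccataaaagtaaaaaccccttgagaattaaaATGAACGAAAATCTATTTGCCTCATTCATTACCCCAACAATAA
A read confined to these capitals fits both genes of a pair and cannot be given to 1 of them from its sequence.

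In smooth muscle and renin cells mt-Nd4l measured 227 and 754 CPM in control females and 1294 and 1174 CPM in control males at 12 weeks, against 21.1 and 381 CPM in DN females and 617 and 760 CPM in DN males. The 2 values of replicate 1 of the females rested on 30 and 4 UMIs. Groups overlapped because replicate 1 of the females, of the smaller barcode list, was low in either genotype, but the DN library was lower in 4 of 4 pairs. The log2FC was -0.96 (SE 0.52, edgeR adjusted p = 0.762) without the block and -0.94 (SE 0.16, adjusted p = 0.000311) with it, in a class where 1.26% of all genes were called lower. In PT the control libraries measured 583, 1762, 3874 and 2447 CPM and the DN libraries of the same pairs 283, 1536, 3176 and 1855 CPM. The blocked log2FC was -0.52 (SE 0.12, adjusted p = 0.0479).

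With the block mt-Nd4l was called lower in 9 of 14 classes at 12 weeks: smooth muscle and renin, mesangial (-0.65), IC-B (-0.57), aLOH (-0.52), CNT (-0.55), glomerular EC (-0.68), IC-A (-0.40), PT and arterial EC (-0.65). In the other 5 classes it had log2FC of -1.21 (immune cells) to -0.30 (DCT and PC) without a call. Pairs were also counted once in each class, so the same 4 pairs of mice recur and the counts are not independent. Counted so, the DN library was lower in 55 of 57 pairs, with a median log2 ratio of -0.60. The share over all genes was not counted. Without pair 1 of the females at 12 weeks it was called in 3 classes, without pair 1 of the males at 12 weeks in 4, without pair 2 of either sex at 12 weeks in 5 and without pair 1 of the females at 6 weeks in 6, and the log2FC was below 0 in 14 of 14 classes each time. In the fit without the block, leaving out replicate 2 of the control females at 12 weeks turned the mt-Nd4l log2FC to 0.04 in CNT and 0.04 in IC-A. At 6 weeks it was lower in 42 of 60 pairs with a median of -0.16, and no class was called. The difference between the ages was called in no class, and its lowest adjusted p was 0.252 (IC-A, -0.63).

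**Figure D3:**
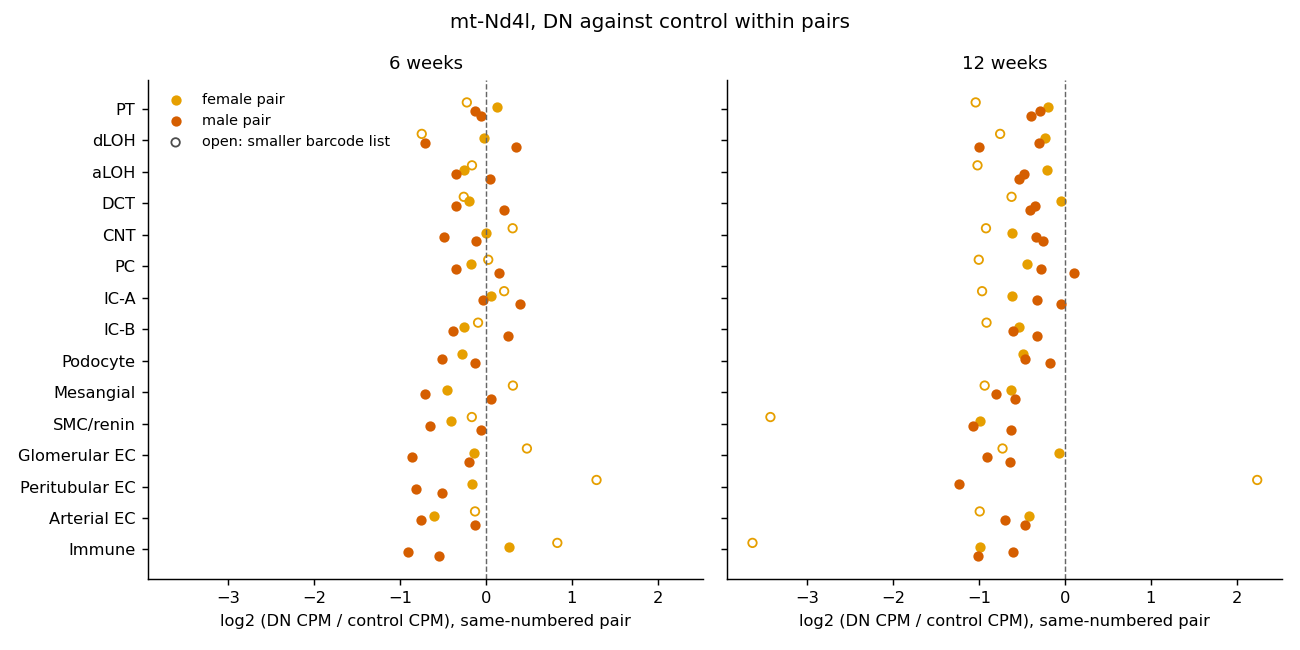
log2 ratio of mt-Nd4l in the DN library over the control library with the same sex, age and replicate number, by class, at 6 weeks (left) and 12 weeks (right), a point for each pair. The same 4 pairs of mice at each age recur across classes. At 6 weeks 42 of 60 pairs lie below 0, and at 12 weeks 55 of 57.

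Its neighbour mt-Nd4 had a blocked log2FC of -0.42 to 0.11 at 12 weeks and was called in no class. With the same pairs of mice again counted once in each class, the DN library was lower in 43 of 57 for mt-Nd4, with a median log2 ratio of -0.09. mt-Atp8 was called lower in glomerular EC (-0.76), IC-A (-0.59), IC-B (-0.57) and mesangial cells (-0.57), and was lower in 50 of 57 pairs, while mt-Atp6 was lower in 26 of 57 and called nowhere. mt-Nd3 was called lower in mesangial cells (-0.38) and smooth muscle and renin cells (-0.50), and mt-Nd5 in the latter (-0.42). mt-Nd1, mt-Nd2, mt-Nd6, mt-Co1, mt-Co2, mt-Co3 and mt-Cytb were called in no class at 12 weeks. Between the barcode lists, described further on, the called genes also differed, with median log2FC of -1.52 for mt-Nd4l, -0.51 for mt-Atp8, -1.57 for mt-Nd3 and -0.75 for mt-Nd5, and whether library preparation within a pair plays a part was not tested. Malat1 and Neat1 in smooth muscle and renin cells measured 54801 to 131306 CPM in controls and 45386 to 98231 CPM in DN at 12 weeks. Dissociation stress genes, summed, were higher in DN without overlap in glomerular EC (3614 to 6438 against 2766 to 3561 CPM), had a median of 1385 against 543 CPM in CNT (819 to 1760.5 against 503 to 912 CPM) and overlapped in the other called classes, and their part in these differences was not tested.

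Nuclear calls in the collecting system at 12 weeks were few and went both ways. Uqcrfs1, the Rieske iron-sulfur protein of complex III, measured 413, 385, 376 and 293 CPM in PC of controls and 546, 443, 608 and 371 CPM in the DN libraries of the same pairs. It was higher in 4 of 4 pairs, with a blocked log2FC of 0.49 (SE 0.11, adjusted p = 0.00874) against 0.52 (adjusted p = 0.563) without the block. Ndufv3 in PC (0.41, adjusted p = 0.0183) and Ndufa1 in IC-B (0.30, adjusted p = 0.0478), both of complex I, were also called higher with the block.

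Cox7a1 was called lower with the block in CNT (-0.67, SE 0.15, adjusted p = 0.0110), PC (-0.45, adjusted p = 0.0125) and IC-B (-0.40, adjusted p = 0.0224). In PC it measured 287, 174, 60.7 and 81.9 CPM in controls and 199, 115, 51.6 and 49.5 CPM in the DN libraries of the same pairs. In CNT it measured 178, 104, 37.5 and 63.1 CPM in controls and 112, 59.6, 41.0 and 29.8 CPM in DN, so that 1 male pair went the other way. Females lay above males in both genotypes. Replicate 1 of the females belongs to the smaller barcode list, in which Cox7a1 was called higher in 9 of 9 classes. Its difference between the sexes was called in 2 of 9 classes with all libraries and was not called in the larger list alone. Cox7a1 is highest in IC-A, and the summed IC-A markers were 25.2 to 62.5 CPM in control and 13.6 to 31.9 CPM in DN libraries of PC, with Dmrt2 called lower (-0.69, adjusted p = 0.0379), 53.9 to 120.0 against 45.1 to 85.2 CPM in CNT and 246 to 363 against 226 to 337 CPM in IC-B, where Adgrf5 was called higher (0.55, adjusted p = 0.0294). The other IC-A markers tested were not called. All 6 in PC (-0.82 to -0.50) and all 4 in CNT (-0.53 to -0.09) had a log2FC below 0, as Cox7a1 did, while of those in IC-B Aqp6 had 0.53 (adjusted p = 0.214) and Kit, Oxgr1 and Slc4a1 were below 0. The part of IC-A transcripts in this difference was not tested. Without pair 2 of the females or of the males at 12 weeks Cox7a1 was called in no class.

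The DN effect at 12 weeks was compared with that at 6 weeks in each class. None of 1073 nuclear and 182 mitochondrial tests was called, without the block or with it, where 0.0% and 0.0398% of all tests were called, and 1 nuclear and no mitochondrial test had an unadjusted p under 0.05 without the block.

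Cox6b2 in PT, the isoform with a wide range there, varied with sex and genotype. Control males measured 8.71 and 13.7 CPM at 6 weeks and 11.1 and 13.4 CPM at 12 weeks. DN males measured 71.5 and 59.1 CPM at 6 weeks and 38.4 and 38.6 CPM at 12 weeks. Control females already held 90.7 and 44.2 CPM at 6 weeks and 48.1 and 85.3 CPM at 12 weeks, and DN females 106 and 74.4 CPM and 132 and 74.98 CPM. Control males were below all other libraries without overlap, DN males overlapped the control females, and the DN females overlapped the control females.

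A fit with a DN term for each sex over both ages was made after these values had been seen, so its p-values describe a pattern found in the same libraries. In males the log2FC was 2.06 (SE 0.35, edgeR adjusted p = 0.00421), and it was called without each of 16 libraries in turn (1.84 to 2.19). With the block it was 2.05 (SE 0.25, adjusted p = 0.000174). In females it was 0.59 (SE 0.34, adjusted p = 1) and 0.54 (adjusted p = 0.327) with the block. The difference between the sexes was 1.47 (SE 0.48, adjusted p = 0.579), or 1.51 (SE 0.36, adjusted p = 0.0504) with the block, and was not called. Without single pairs the blocked difference was called in 3 of 8 fits (1.19 to 1.80, adjusted p from 0.0248 to 0.165). The widespread isoform Cox6b1 had a log2FC of 0.22 in males and 0.20 in females.

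**Figure D4:**
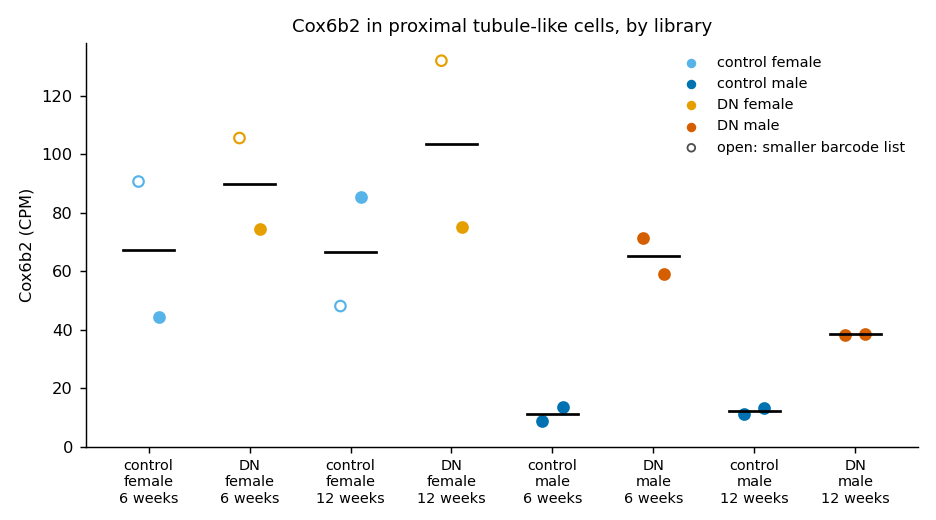
CPM of Cox6b2 in PT in each of the 16 libraries, by genotype, sex and age, with bars at group means. The 4 control male libraries lie between 8.71 and 13.7 CPM, below the 4 DN male libraries at 38.4 to 71.5 CPM.

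In males this was the single call among 1071 nuclear tests in 14 classes, where 0.363% of all tests were called higher, and 1.08% in PT. No mitochondrial member was called in males, and no member of either group in females. With the block, 11 nuclear tests were called in males (8 higher and 3 lower) among 3.93% of all tests. They numbered 2 without pair 2 of the males at 6 weeks, 4 without pair 1 of the males at 12 weeks and 7 without pair 1 of the females at 6 weeks, and without pair 2 of the males at 12 weeks the 9 called were all higher. Those higher were Cox6b2 in PT, DCT (0.88) and IC-B (0.68), Cox5b (0.34), Cox4i1 (0.30), Atp5o (0.32) and Atp5a1 (0.25) in PT and Uqcrfs1 in PC (0.43). Those lower were Cox7a1 in CNT (-0.57) and Cox4i2 (-0.86) and Ndufa4l2 (-0.43) in mesangial cells. In females the block gave Ndufv1 in PT (0.39), Cox7a1 in IC-B (-0.42) and mt-Atp8 in IC-B (-0.57), among 1.04% of all tests, with 0.442% called lower. These calls also moved with single pairs: the mitochondrial calls became 4, all higher, without pair 1 of the females at 12 weeks, 1 higher without pair 2 of that group, 0 without pair 1 of the females at 6 weeks and 3 lower without pair 2 of that group, and the nuclear calls ranged from 0 to 3.

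Of the 182 tests of mitochondrial members, 22 were called lower in males with the block, against 1.65% of all tests called lower, all in glomerular EC, peritubular and venous EC, mesangial cells and smooth muscle and renin cells. They included mt-Nd2 in 4 classes (-0.83 to -0.42) and mt-Nd4 (-0.67 to -0.36), mt-Nd4l (-0.93 to -0.48) and mt-Cytb (-0.78 to -0.38) in 3 classes each. These calls leaned on single pairs: 3 were left without pair 1 of the males at 6 weeks, which holds the control library with high mitochondrial levels, and 6 without pair 1 of the males at 12 weeks. Of the 16 libraries that control library had the highest median mitochondrial share of UMIs per cell in glomerular EC (8.0%), mesangial cells (8.53%) and smooth muscle and renin cells (12.3%), and replicate 1 of the DN males at 12 weeks had the lowest in the same classes (2.93%, 3.56% and 5.76%). The DN effect in males differed from that in females for 6 mitochondrial members in peritubular and venous EC with the block, among 0.191% of all tests, and for none without it, among 0.0192%. For mt-Cytb, the mitochondrial subunit of complex III, controls measured 9759.7, 5852, 4541 and 6122 CPM in 4 males and 4813, 3382 and 4260.0 CPM in 3 females, and DN mice 5436, 3589 and 2878 CPM in 3 males and 6949, 3805 and 5298 CPM in 3 females. Values of all 4 groups overlapped, and no call was left without pair 1 of the females at 6 weeks.

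Males and females were compared over both genotypes and ages. Without regard to the list, 16 nuclear tests were called lower in males (7 in dLOH, 5 in peritubular and venous EC, 3 in PT and 1 in IC-B) and none higher, where 0.591% of all tests were called lower and 0.65% higher, and 9 mitochondrial tests were called higher. Without any 1 of the 4 libraries of the smaller list 1 to 6 nuclear calls were left, and without a female library of the larger list there were 31 to 89. Level and list moved together: Ndufa3 in dLOH measured 505 to 615 CPM in its 4 libraries and 97.3 to 285 CPM in the other 12, and its log2FC of -1.42 (SE 0.28, adjusted p = 0.016) became -0.47 (adjusted p = 0.413) in the larger list alone.

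Within the larger list the picture turned. In 14 classes, 42 nuclear tests were called higher in males and 1 lower, where 1.57% of all tests were called higher and 1.15% lower. Of the 42, 35 were in PT, 6 in IC-B and 1 in CNT (Sdhb, 0.73). In PT, 15.8% of all genes were called higher in males, and the median log2FC was 0.37 over the nuclear members and -0.02 over all genes. The lowest adjusted p was that of Sdhb, the iron-sulfur subunit of complex II (log2FC 0.69, SE 0.15, adjusted p = 0.00947). Ndufa11 (0.61), Ndufs8 (0.48), Ndufb6 (0.72) and Ndufv1 (0.57) of complex I followed, and of the 36 nuclear calls in PT 23 belonged to complex I, 8 to V, 3 to IV and 1 each to II and III. The nuclear sum in PT of the larger list was 39442 and 37182 CPM in 2 female and 44121 to 53382 CPM in 4 male libraries at 6 weeks, but 54871 and 51015 CPM in 2 female and 45129 to 57981 CPM in 4 male libraries at 12 weeks, so the sexes were apart at 6 weeks and overlapped at 12. These lists share 4 female libraries against 8 male libraries, and no other female library could be compared within a list.

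Few sex differences were called both with all libraries and in the larger list alone. The 1 nuclear member lower in males within the larger list was Cox6b2 in PT (-1.31, adjusted p = 0.0127; -1.71 with all libraries, SE 0.31, adjusted p = 0.00309), for which the values are given above. Within the larger list mt-Nd3 was called lower in males in PT (-0.55, adjusted p = 0.0386), against 0.0040 (adjusted p = 0.997) with all libraries. mt-Nd6 is a complex I subunit and the only mitochondrial member encoded on the strand opposite to the others. It was called higher in males in 4 of 15 classes with all libraries and in 2 of 14 in the larger list. The female ranges below include the smaller-list libraries, and mt-Nd6 was lower in that list, with a median log2FC of -0.81 (below 0 in 13 of 13 classes). In IC-B females ranged from 37.5 to 92.5 CPM with a median of 55.5 CPM and males from 102 to 152 CPM with a median of 128 CPM, without overlap. Its log2FC was 1.07 (SE 0.14, edgeR adjusted p = 0.00095) over all libraries and 0.91 (adjusted p = 0.00721) in the larger list. In CNT females ranged from 34.1 to 141 CPM with a median of 94.0 CPM and males from 160.0 to 222 CPM with a median of 197 CPM, again without overlap, with a log2FC of 1.06 (SE 0.19, adjusted p = 0.0114) and of 0.77 (adjusted p = 0.0487) in the larger list. It overlaps mt-Nd5 by 14 bases at chrM:13552-13565 on the opposite strand.

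The barcode lists themselves differed more than the genotypes or the sexes. In a fit with the list as a term over 13 classes, 684 of 997 nuclear tests were called higher and 10 lower in the smaller list, where 12.7% and 12.3% of all tests were called. The nuclear sum was higher in the smaller-list library of every same-group pair, 55 of 55 over the classes, by a median of 1.42 times (1.09 to 2.01). Cox6a1 had a median log2FC of 1.96 over 13 classes (1.70 to 2.34), Cox7a1 1.63 over 9, Ndufa3 1.6004, Uqcrb 1.49 and Sdhb 1.40, whereas Ndufs1, the largest complex I subunit of the nucleus, had -0.30 and Atp5g2 -0.25.

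Mitochondrial members were pulled apart: 28 of 169 tests were called higher and 57 lower. mt-Nd1 was called higher in 13 of 13 classes with a median log2FC of 1.27 (0.87 to 1.48), and mt-Atp6 (0.57) and mt-Cytb (0.53) were higher in 7 classes each. mt-Nd3 was called lower in 13 of 13 classes with a median of -1.57, and mt-Nd4l in 12 of 13 with -1.52 (-2.20 to -1.06). mt-Nd5 (-0.75), mt-Nd6 (-0.81), mt-Nd2 (-0.62) and mt-Atp8 (-0.51) lay below, while mt-Co3 (0.06) and mt-Nd4 (0.18) were called in none. The mitochondrial sum hid this, since the smaller-list library was higher in 29 of 55 pairs, with ratios from 0.779 to 1.38. All 4 libraries of the smaller list were female and of low depth, so list, depth and mouse cannot be told apart here.

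**Figure D5:**
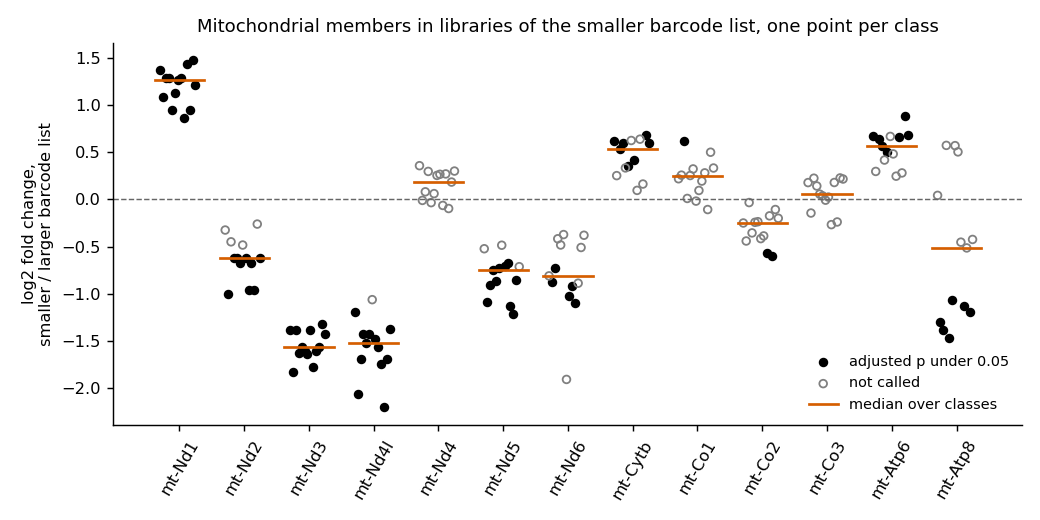
log2FC of each mitochondrial member in the smaller over the larger barcode list, a point for each of 13 classes, filled where the adjusted p is under 0.05, with the median in orange. mt-Nd1 lies between 0.87 and 1.48 and mt-Nd4l between -2.20 and -1.06.

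Genes that build and serve the complexes were counted from 4 lists: 49 assembly factors, 25 regulators of mitochondrial and respiratory genes, 11 electron carriers and nucleotide exchangers and 15 enzymes of the citric acid cycle and pyruvate dehydrogenase. Without the block none was called at 6 weeks, and at 12 weeks 1 test of the carriers was called lower. With the block at 12 weeks, 1 of 617 tests of assembly factors was called higher and 6 lower, 3 of 268 tests of regulators lower, 8 of 153 tests of carriers higher and 1 lower, and none of 210 in the citric acid cycle. In shares, 1.13% of the assembly factor tests, 1.12% of the regulator tests and 5.88% of the carrier tests were called, beside 3.41% of all tests. Between the sexes in the larger list, 23 of 628 tests of assembly factors, 6 of 153 of carriers, 2 of 210 of the citric acid cycle and 2 of 286 of regulators were called higher in males, and 4 of regulators lower, beside the 42 of 1073 of the nuclear members. The shares called higher were 3.66%, 3.92%, 0.952% and 0.699% in that order and 3.91% for the nuclear members, beside 1.57% of all tests, and 1.4% of the regulator tests were called lower beside 1.15%. Whether these shares differ from those of all genes was not tested.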

How the data were processed

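Single-cell 3′ libraries of 16 mice were sequenced by the authors, and the deposited files hold raw UMI counts per gene and barcode. The submitters' processing notes name Cell Ranger 3.0.2 and the build mm10. All 31053 features were kept, and 0 columns of per-sample values were left unused. Members were taken by symbol with no measured value, but the rule and the lists were set with earlier results of these data known. No pattern here is independent of those results.

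The range allowed per barcode was 200 to 7000 genes, and mitochondrial UMIs were limited to 50%, or 20% in non-tubular classes. The cells were clustered with 2000 variable genes, 30 principal components, a harmony-type integration over libraries (theta 2), 20 neighbours and Leiden resolution 1.0, without 414 genes that comprised the members and other mitochondrial, ribosomal, sex-linked and list genes. The 50 clusters were named from markers. A cluster stayed unnamed for any of these reasons: too few markers, strong markers of another class as well, or leading genes with more markers of another class. A median depth under the limit for its libraries was also such a reason, even where the markers of a class were present. Cells with a UMI of an opposite-lineage marker were removed as doublets, and no doublet caller was run. Free RNA was not corrected.

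Counts were summed per library and class of at least 10 cells. A comparison was fitted where each side had at least 3 libraries, with edgeR 4.0.16 (quasi-likelihood test, TMM, filterByExpr, R 4.3.3), and p-values were adjusted by Benjamini-Hochberg over all genes of a class. Calls had an adjusted p under 0.05. The single-cell test of the study was not used, since cells of 1 mouse are not replicates. Each library is 1 mouse, so p-values measure the spread between mice. DESeq2 1.42.0 was an alternative. DN and control libraries with the same sex, age and replicate number deviated together: the median correlation over classes of their deviations from group means was 0.29 in males at 6 weeks (lowest 0.19), 0.34 in males at 12 weeks (lowest 0.11), 0.50 in females at 6 weeks (lowest 0.31) and 0.47 in females at 12 weeks (lowest 0.33), so the pairs served as a replicate block. Genes were named by a rule: up to 3 called members of each group per class in a comparison, the 3 lowest unadjusted p-values where nothing was called, preset isoform pairs and core subunits, and the mitochondrial members. The result of 1 gene is not reported here. Other named genes were chosen after their values were seen: Cox7b2, the genes called only with the block or within a sex, and the comparison of DN within each sex. On counts simulated for the 12-week comparison in PT (12158 genes), 61 of 200 genes changed by 1 on the log2 scale and 179 of 200 changed by 2 were called, and in mesangial cells (9254 genes) 79 and 193. Python 3.11.15, numpy 2.4.6, scipy 1.17.1, pandas 2.3.3, scikit-learn 1.9.0, igraph 0.11.9, leidenalg 0.10.2 and matplotlib 3.10.9 were used. Library totals ranged from 10510855 to 125551519 UMIs. Alternatives changed the test, scaling, count filter, mitochondrial limit, doublet removal, least number of cells, barcode list, replicate block, ages fitted, naming of low-depth clusters, and libraries left out.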

Additional observations from a re-analysis of the deposited data

Results flagged for a closer look

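Among 258 groups of 4 libraries with the same genotype and age, 12 held a library far from the other 3. Chance marks about 1 in 20, so this number is near that share. The sexes and barcode lists are mixed within these groups, which that rate does not allow for. Of the 12, 10 concerned replicate 1 of a female group, a library of the smaller barcode list. In dLOH, Ndufa3 measured 505 CPM in replicate 1 of the DN females at 6 weeks against 169 to 197 CPM in the other libraries of that genotype and age, and 615 CPM in replicate 1 of the control females against 182 to 233 CPM. Ndufb2 in dLOH measured 555 CPM against 222 to 271 CPM and 621 CPM against 227 to 252 CPM in the same libraries. Uqcr11 in dLOH measured 1319 CPM against 581 to 635 CPM and 1439 CPM against 529 to 592 CPM there, and Uqcrq in dLOH 1159 CPM against 393 to 456 CPM in the control library. Cox6a1 in peritubular and venous EC measured 799 CPM in that control library against 245 to 299 CPM. mt-Nd4l in glomerular EC was lowest in replicate 1 of the DN females at 12 weeks, at 67.8 CPM against 249 to 265 CPM.

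The nuclear sum of immune cells was 31124 CPM in replicate 1 of the DN females at 12 weeks and 17294 to 18947 CPM in the other DN libraries of that age. In IC-B the nuclear sum of replicate 2 of the DN females at 6 weeks was 45727 CPM against 71288 to 73502 CPM. The mitochondrial sum of glomerular EC was 76437 CPM in replicate 1 of the control males at 6 weeks against 41777 to 44572 CPM.

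The DN effect in peritubular and venous EC differed between the sexes for 6 mitochondrial members in the edgeR fit with the replicate block. The male minus female difference of log2FC was -0.97 for mt-Nd1 (adjusted p = 0.028), -1.10 for mt-Nd2 (0.0329), -0.98 for mt-Co2 (0.0195), -0.91 for mt-Atp6 (0.0329), -0.99 for mt-Co3 (0.0195) and -1.19 for mt-Cytb (0.00668). The log2FC was -0.83 to -0.51 in males and 0.27 to 0.45 in females for these members. Without pair 1 of the females at 6 weeks none of the 6 was called, without pair 2 of the females or of the males at 6 weeks 1, and without pair 1 of the males at 6 weeks 2.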

How the results depend on the processing

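Nuclear calls between DN and control at 6 weeks numbered 2 without the count filter and 2 with the replicate block, and mitochondrial calls 1 with the block. At 12 weeks nuclear calls numbered 1 with DESeq2, 3 without the filter, 8 with the block, 1 with the barcode list as a covariate and 1 with the ages fitted alone, and mitochondrial calls 1 without the filter, 16 with the block (7 and 8 without pair 1 and pair 2 of the females at 12 weeks, 8 and 10 without those of the males at 12 weeks, and 13 to 17 without a pair at 6 weeks) and 1 with the list. Against 16 nuclear sex calls there were 115 with DESeq2, 172 without the filter, 50 with the list, 43 in the larger list and 7 with doublets kept, and against 9 mitochondrial sex calls 29, 52, 3 and 3 in the first 4 of these. Within males the block gave 11 nuclear and 22 mitochondrial calls, within females 2 and 1, and 6 mitochondrial calls for the difference. With libraries or pairs left out, nuclear calls ranged from 0 to 3 at 6 weeks, 0 to 11 at 12 weeks, 0 to 1 between ages, 1 to 89 between sexes, 1 to 12 in males, 0 to 3 in females and 0 to 1 for the difference, and mitochondrial calls from 0 to 4, 0 to 17, 0 to 1, 2 to 21, 0 to 25, 0 to 4 and 0 to 6. Reversals were few: mt-Nd4l at 12 weeks without replicate 2 of the control females (it ranged over libraries left out from -1.0105 to 0.0431 in CNT and from -0.7285 to 0.0443 in IC-A), Cox6a1 and Ndufa3 between the sexes in peritubular and venous EC 0.66 and 0.34 with the list, and Ndufa3 in PT 0.0060 with the list and 0.0141 in the larger list. Of the alternatives for single genes 1587 kept direction and call, 197 gained a call, 217 lost it and 6 reversed, and of those for summed levels 682 moved by less than the spread and 22 by more. Other size factors moved the median log2FC within a class by at most 0.0338 over all genes and 0.0384 over the nuclear members. The sign changed for 17 and for 5 of 58 medians. The cause of these changes was not tested. The 4 smaller-list libraries had the lowest totals, but counting error in a class also depends on its number of cells. Among control females at 12 weeks, glomerular EC numbered 31 in replicate 2 and 314 in replicate 1, with medians of 5269 and 2123 UMIs.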
